A study of Mus musculus with 58 samples.

Results

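The 38 protein-coding Hox genes described here lie in 4 clusters and were taken by name and by position in the cluster, with no expression value used in the choice. They are 38 of 22556 genes counted in every library. Per the coordinates in the count files (mm10), 10 members of the Hoxa cluster span chr6:52162416-52260880 on the minus strand, and 10 of the Hoxb cluster span chr11:96194360-96368253 on the plus strand. The 9 members of the Hoxc cluster span chr15:102921130-103036852, and the 9 of the Hoxd cluster span chr2:74668309-74765142, both on the plus strand. The question addressed here is how much Hox RNA was present on chromatin in each line and day, and whether it moved when PCGF3 and PCGF5 were degraded.

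Hox genes encode homeodomain transcription factors that give cells their position along the body axis. Within a cluster the genes are numbered by paralog group, from the anterior (low numbers, at the 3′ end of the cluster) to the posterior (high numbers, at the 5′ end), and during development they are switched on in that order. In embryonic stem (ES) cells the clusters are a textbook example of Polycomb repression, in which PRC1 ubiquitinates histone H2A and PRC2 methylates H3K27 over CpG-rich promoters. PCGF3 and PCGF5 are subunits of variant PRC1 complexes, and other variant and canonical PRC1 complexes contain other PCGF proteins. The libraries analysed here measured RNA only, so that Polycomb occupancy of the clusters was not checked.

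The data were 58 chromatin-associated RNA libraries (ChrRNA-seq, strand-specific RNA-seq of the chromatin pellet, rich in nascent transcripts) from female mouse ES cells. All lines were F1 hybrids of a 129S (called Dom in the files) and a Cast genome, and all carried a doxycycline-inducible Xist promoter on the Dom X chromosome. They fall into 6 lines. WT was this parental line. In SPOC the SPOC domain of the silencing factor SPEN was mutated. In PCGF35 both PCGF3 and PCGF5 carried an FKBP12 degron tag, so that dTAG-13 leads to loss of the tagged proteins. DelPID lacked the Xist B/C-repeat region through which Xist recruits PCGF3/5-PRC1, and PCGF35_SPOC and DelPID_SPOC combined the respective changes. ES libraries (26) were collected before (d0) and after 1 day (d1) of doxycycline, and libraries of cells in neural precursor (NPC) differentiation (32) at day 3 and day 6 with doxycycline, which was given at 1 ug/mL. dTAG-13, given in the labels as 100 uM, was added 12 h before doxycycline in 16 libraries of the PCGF35 and PCGF35_SPOC lines and was kept through differentiation. No ES library of WT or DelPID was analysed here. Each of 26 groups held 2 libraries and the SPOC ES groups held 3. Replicates were separate clones in SPOC (C11, D9 and H1, of which D9 and H1 were differentiated), PCGF35_SPOC (F10 and F6) and DelPID_SPOC (A8 and G3). In the other lines they were numbered samples of 1 line. The study describes a DelPID_SPOC clone G, taken here to be G3, as tetraploid, with 2 copies of each X allele. Per the study, the numbered samples were duplicate experiments, so that they differ between experiments on 1 line and not between clones. The main tests estimated the spread of each gene over all groups, so that their p-values mix both kinds of replicate. ES cells had been grown on mouse fibroblast feeders, removed by pre-plating.

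Total gene counts were between 2.29 and 30.0 M fragments per library. DelPID NPC d6 replicate 1 (2.29 M) and DelPID NPC d3 replicate 1 (6.37 M) were shallow, and all others had at least 9.19 M. The dTAG-13 degron acts on protein, so RNA of the tagged genes does not check the labels. As a check of cell state, 7 of 8 ES cell genes fell from ES d0 to NPC d6 in the 4 untreated lines with both stages, the pluripotency gene Zfp42 among them (log2 fold change −1.58, SE 0.21). Pou5f1, with medians of 47.2 CPM in ES and 59.1 CPM in NPC libraries, did not pass (0.31, SE 0.15, adjusted p = 0.0760, edgeR quasi-likelihood test with Benjamini-Hochberg adjustment). Of 5 neural precursor genes tested of 8, Pax6 (1.02) and Vim (1.09) rose and Nes missed the threshold (1.18, adjusted p = 0.0502). Sox1 was listed at 0 in all libraries, and Fabp7, Hes5 and Zic1 had medians of at most 0.102 CPM (fragments scaled to the library's total gene count) over ES and over NPC libraries of both days. Whether Sox1 reads were lost in the counting was not tested. The summed level of the 8 neural genes was 25.1 to 115 CPM in ES libraries and 28.1 to 399 CPM at NPC d6, and thus uneven between the differentiated libraries.

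Hox RNA was close to the floor of the measurement in every line. The 38 genes took 4037 fragments over all 58 libraries, and a single library held between 10 and 202 of them (median 59.5). Summed over the 38 genes the level was between 1.41 and 11.4 CPM per library, with a median of 3.82 CPM. Between 6 and 26 members had any fragment in a given library, and 60.8% of all member-by-library values were 0. Ranked by mean CPM per kb of gene among all genes, the members had a median percentile of 23.4, and the highest, Hoxb9, reached 47.2. None therefore reached the all-gene median of 0.243 CPM per kb. These figures include 4 members, named below, whose count of 0 does not measure their RNA.

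The members were far from equal. Hoxc13, which takes part in hair and nail development, had 930 fragments (23.0% of all Hox fragments) and Hoxb9, a thoracic and mammary patterning gene, had 882 (21.8%). Hoxa3 followed with 368, Hoxd3 with 291, Hoxc12 with 207, Hoxd8 with 199, Hoxd1 with 187, Hoxd13, the limb digit gene, with 182 and Hoxa10, the uterine and lumbar gene, with 124. These 9 members held 83.5% of the fragments, and another 25 had between 8 (Hoxb5) and 78 (Hoxa13) in all libraries together, with 14 for Hoxc8, the lowest of its cluster. The remaining 4 (Hoxa4, Hoxa5, Hoxa6 and Hoxd4) had no fragment in any library. Each of these 4 lies, in the annotation the files use, within a longer gene on the same strand (Hoxa3 for the Hoxa genes, Hoxd3 for Hoxd4), and fragments that overlap 2 genes were left unassigned by the authors, so that a count of 0 there does not measure their RNA.

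Per kb of gene the order changed, because Hoxa3 (44.0 kb) and Hoxd3 (36.3 kb) are annotated as long genes. Mean levels over all libraries were 0.183 CPM per kb for Hoxb9, 0.132 for Hoxc12, 0.125 for Hoxc13, 0.0892 for Hoxd1, 0.0649 for Hoxd8 and 0.0582 for Hoxd13, against 0.00917 for Hoxa3 and 0.00869 for Hoxd3. By cluster, the 2 highest members per kb were Hoxa13 and Hoxa10, Hoxb9 and Hoxb13, Hoxc12 and Hoxc13, and Hoxd1 and Hoxd8. The 2 highest were thus in paralog groups 9 to 13 in 3 of the clusters and not in Hoxd. Pooled over libraries, the 16 members of groups 9 to 13 summed to 2.88 CPM (95% exact Poisson interval 2.77 to 2.99), the 11 of groups 1 to 4 to 1.16 CPM (1.09 to 1.23) and the 11 of groups 5 to 8 to 0.369 CPM (0.330 to 0.410). All such intervals cover counting error only, since the reads carry no molecular identifiers. The sums are not per kb, and the long Hoxa3 and Hoxd3 are in groups 1 to 4. Hoxa4 and Hoxd4 in groups 1 to 4, and Hoxa5 and Hoxa6 in groups 5 to 8, entered as 0, which does not measure their RNA. Neighbours within Hoxb show how local the levels were: 882 fragments for Hoxb9 stood beside 11 for Hoxb8 and 27 for Hoxb7.

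**Figure D1:**
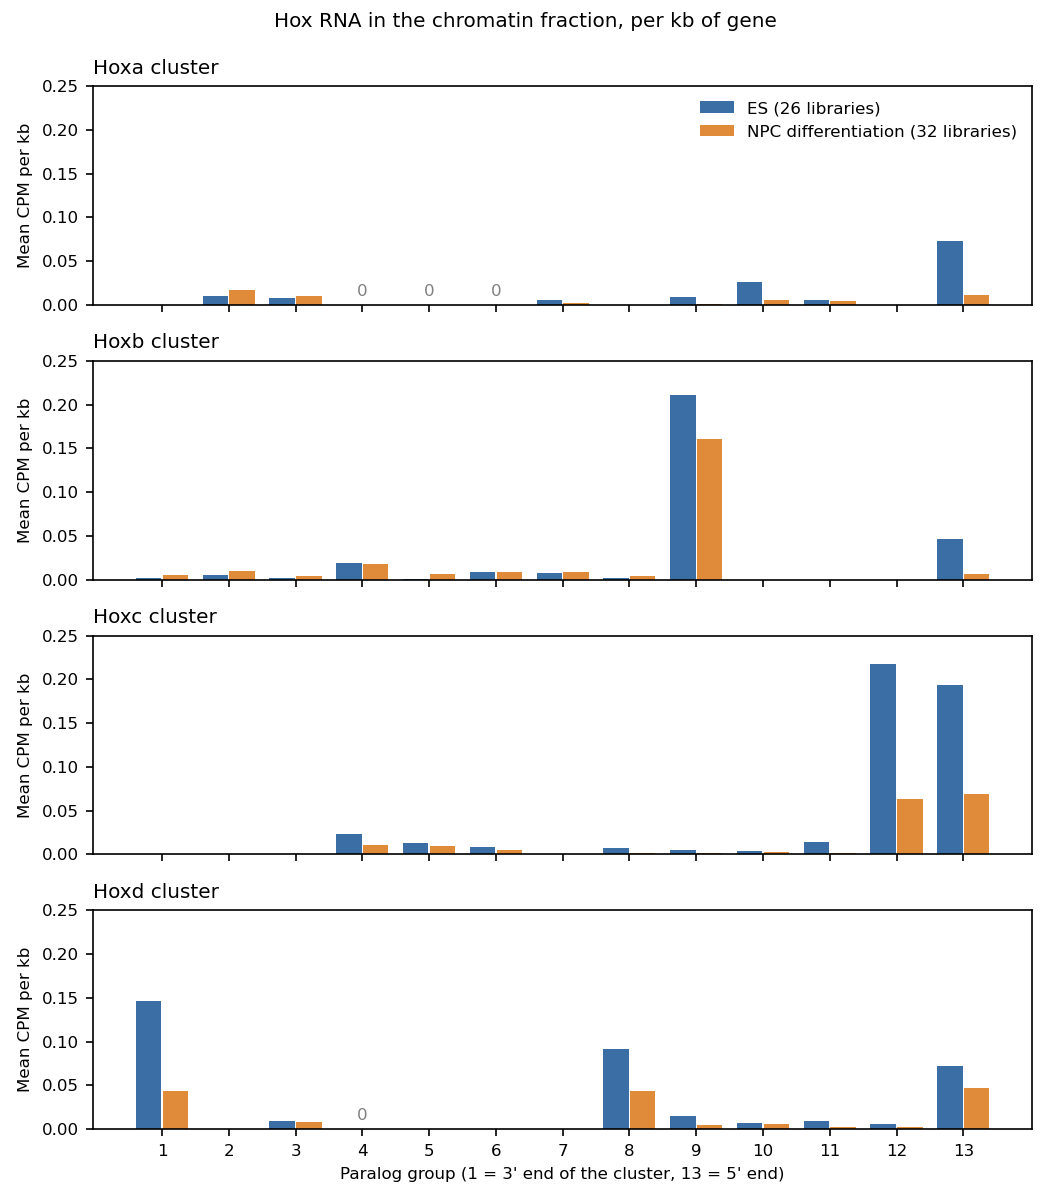
Mean level of each of the 38 Hox genes in CPM per kb of gene (y axis) by paralog group (x axis, 1 at the 3′ end and 13 at the 5′ end of a cluster), 1 panel per cluster, with bars for the 26 ES and the 32 NPC libraries and a grey 0 for members without a fragment. The highest bars are Hoxb9, Hoxc12, Hoxc13 and, at the other end of its cluster, Hoxd1, and ES bars exceed NPC bars for each of these.

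Of the 4 members whose RNA fell between ES and NPC libraries, Hoxd1 and Hoxd8 have a RefSeq promoter window, and these sequences are shown with that of Hoxd13, because their CpG content, the feature by which PRC1 complexes are known to find promoters, differs widely. Each line gives the 250 bases up to the annotated start (GRCm38.p6, plus strand), with CpG dinucleotides in capitals. The windows hold 24, 6 and 31 CpG, in that order.
Hoxd1, chr2:74762730-74762979: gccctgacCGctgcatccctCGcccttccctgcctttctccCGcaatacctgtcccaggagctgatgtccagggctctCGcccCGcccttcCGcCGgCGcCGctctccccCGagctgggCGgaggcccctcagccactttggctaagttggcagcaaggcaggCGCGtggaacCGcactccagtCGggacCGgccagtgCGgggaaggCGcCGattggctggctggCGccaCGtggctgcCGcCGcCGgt
Hoxd8, chr2:74704365-74704614: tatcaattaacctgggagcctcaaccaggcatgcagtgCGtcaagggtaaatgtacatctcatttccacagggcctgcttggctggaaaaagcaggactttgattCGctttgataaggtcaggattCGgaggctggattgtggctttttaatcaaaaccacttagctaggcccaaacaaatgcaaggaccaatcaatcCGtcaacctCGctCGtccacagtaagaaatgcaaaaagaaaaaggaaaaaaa
Hoxd13, chr2:74667975-74668224: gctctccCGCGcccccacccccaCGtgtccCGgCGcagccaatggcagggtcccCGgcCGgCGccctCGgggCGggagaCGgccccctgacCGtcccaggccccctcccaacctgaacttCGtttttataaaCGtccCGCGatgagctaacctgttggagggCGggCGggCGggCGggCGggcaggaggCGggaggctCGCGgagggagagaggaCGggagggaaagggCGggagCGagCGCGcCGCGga

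A window of 300 bases (250 before and 50 after the start) was given for 22 of the 38 members, in 24 windows. These held between 4 and 45 CpG (median 14.5), against a median of 7 over 32851 windows of all genes, and 20 of 24 lay above that median. Hoxa13 held the most (45, a number reached by 1.93% of all windows), followed by Hoxd13 (37, 5.58%), and Hoxd1 held 29 (12.9%). Hoxd8 was among the poorest, with 6, a number reached by 56.4% of all windows. Letters in a window describe the sequence and not binding. Both Hoxd1, CpG-rich, and Hoxd8, CpG-poor, were lower in NPC libraries, as given next.

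Several genes that flank the clusters were abundant. Within 250 kb of the clusters 27 other genes are annotated outside them and 9 within them. Skap2 beside Hoxa was at 173 CPM in pooled ES and 116 CPM in pooled NPC libraries, Igf2bp1 beside Hoxb at 237 and 344 CPM, Cbx5, which encodes HP1 alpha, beside Hoxc at 313 and 319 CPM, and Mtx2 beside Hoxd at 107 and 89.7 CPM. Per kb these stood between the percentiles 66.5 (Skap2) and 96.3 (Cbx5) of all genes. Inside the Hoxb cluster, Gm53 was at 13.4 and 15.1 CPM (percentile 70.3), above all Hox genes. The homeobox genes next to the clusters were as low as the members: Evx1 was at 0.208 and 0.187 CPM and Evx2 had 2 fragments in all libraries. The antisense RNA Hotair, within Hoxc, had 3.

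Pooled over lines, summed Hox RNA was lower at NPC d6 than at ES d0. ES d0 cells had no doxycycline and NPC d6 cells had it, so that stage and Xist induction cannot be told apart by these 2 groups. ES d1 cells of the same lines had 1 day of doxycycline, and against ES d0 no Hox gene was called, as given below. The longer induction up to d6 remains confounded with stage. Untreated means without dTAG-13. Over the 4 untreated lines with both stages (PCGF35, PCGF35_SPOC, DelPID_SPOC and SPOC), the summed level was 6.13 CPM (95% interval 5.75 to 6.53) in 9 pooled ES d0 libraries and 3.34 CPM (3.01 to 3.70) in 8 pooled NPC d6 libraries. Single libraries were between 3.16 and 9.71 CPM (median 6.50) at ES d0 and between 1.70 and 6.96 CPM (median 2.88) at NPC d6. The stages thus overlapped between lines. The highest ES d0 library, at 9.71 CPM, was SPOC clone C11, which was not differentiated. In PCGF35, PCGF35_SPOC and SPOC every NPC d6 library was below every ES d0 library of its line. In DelPID_SPOC clone A8 was at 6.50 CPM at ES d0 and 3.11 CPM at NPC d6. Clone G3, taken to be the tetraploid one, was at 6.73 and 6.96 CPM and was not lower. In bulk samples fewer cells with Hox RNA and less RNA per cell cannot be told apart. Of 34 members with a fragment, 24 had a higher pooled level at ES d0 and 10 a lower one, where 51.5% of all 20334 such genes, and 53.1% of those under 100 fragments, were higher at ES d0.

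The difference was uneven across clusters. In Hoxc 8 members were higher at ES d0 and 1 lower, in Hoxd 7 and 1, in Hoxa 5 and 2, and in Hoxb 4 and 6. The summed Hoxc level was 2.44 CPM (2.20 to 2.70) at ES d0, against 0.766 CPM at NPC d6. The Hoxb level was 1.37 CPM (1.19 to 1.56) and 1.16 CPM (0.969 to 1.39), with overlapping intervals. By paralog group, groups 9 to 13 went from 4.41 to 2.14 CPM, groups 5 to 8 from 0.507 to 0.212 CPM and groups 1 to 4 from 1.22 to 0.988 CPM. Whether clusters or paralog groups differ in this change was not tested.

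**Figure D2:**
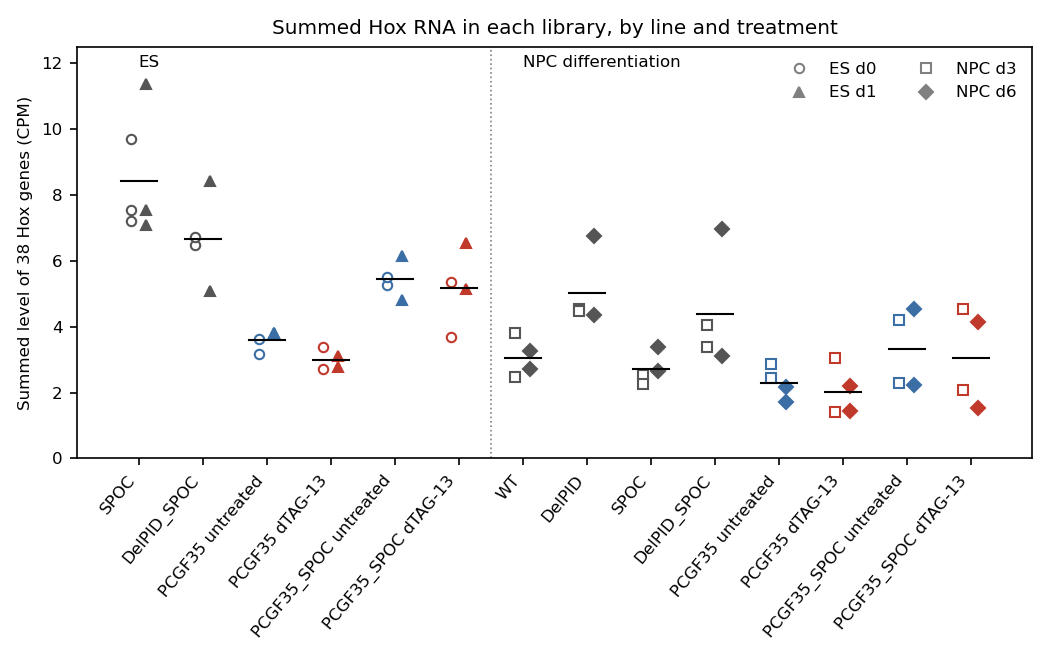
Summed level of the 38 Hox genes in CPM (y axis) in each of 58 libraries, by line, treatment and stage (x axis), with 1 symbol per library, shapes for the day and a black line at the mean. SPOC ES libraries are the highest, at 7.10 to 11.4 CPM, and untreated (blue) and dTAG-13 (red) libraries of the degron lines overlap.

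Of the 9 members with enough fragments to be tested, 4 fell from ES d0 to NPC d6 and none rose (edgeR, mean of the 4 lines, adjusted p under 0.05), where 54.4% of all 16227 tested genes were called and 27.8% fell. All 9 fold changes were negative in this fit, with a median of −1.45 on the log2 scale against 0.00310 over all tested genes. With clones or numbered samples as a block and all 9 kept, Hoxa3 (0.05), Hoxd3 (0.04) and Hoxd13 (0.21) were positive, and none of these was called. The members that passed the filter on low counts did so through the groups where they are high, so that their share does not describe the other 29.

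Hoxc13 was the clearest. Its level at ES d0 was 0.806 and 1.46 CPM in PCGF35, 1.11 and 1.74 in PCGF35_SPOC, 1.66 and 1.67 in DelPID_SPOC, and 2.11, 2.29 and 2.54 in SPOC. At NPC d6 it was 0.252 and 0.435 CPM in PCGF35, 0.474 and 0.754 in PCGF35_SPOC, 0.633 and 0.608 in DelPID_SPOC, and 0.622 and 0.976 in SPOC. Every NPC d6 library was below every ES d0 library of its line in all 4 lines. Hoxc13 was the 1 member of which this was true, and it was true of 9.27% of all tested genes (the reverse, of no member and 6.75%). The log2 fold change was −1.45 (SE 0.28, adjusted p = 5.23e-05).

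Hoxc12, its neighbour in the cluster, is a posterior gene that is also expressed in hair follicles. It was between 0.108 and 1.09 CPM (median 0.406) in the 9 ES d0 libraries and between 0 and 0.218 CPM (median 0.0782) in the 8 NPC d6 libraries. The 2 stages overlapped through PCGF35, where 1 NPC d6 library was at 0.218 CPM and the ES d0 libraries were at 0.186 and 0.108. Its log2 fold change was −1.82 (SE 0.62, adjusted p = 0.0138), and without DelPID_SPOC ES d0 replicate 2 the adjusted p was 0.0555.

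Hoxd1, an anterior gene of the first paralog group with a role in sensory neurons, was between 0.0601 and 0.638 CPM (median 0.278) at ES d0 and between 0 and 0.377 CPM (median 0.0833) at NPC d6. It fell by 1.58 on the log2 scale (SE 0.51, adjusted p = 0.00970). Hoxd8, a mid-cluster gene of axial patterning, was between 0.0541 and 0.447 CPM (median 0.361) at ES d0 and between 0 and 0.473 CPM (median 0.0998) at NPC d6. It had no fragment in PCGF35 NPC d6, so that its fitted change of −1.61 (adjusted p = 0.0344) has no standard error and depends on the prior count. DESeq2 gave an adjusted p of 0.0627 for it, and without 1 library its adjusted p was at most 0.111: the call was lost without either PCGF35 NPC d6 library, PCGF35 ES d0 replicate 1, clone F6 of PCGF35_SPOC at ES d0 or at NPC d6, clone A8 of DelPID_SPOC at NPC d6 or clone D9 of SPOC at NPC d6.

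The other tested members did not pass. Hoxb9, as abundant as Hoxc13, was between 0.453 and 1.74 CPM (median 1.09) at ES d0 and between 0.327 and 1.55 CPM (median 0.749) at NPC d6, and its change was −0.34 on the log2 scale (SE 0.38), with an adjusted p of 0.474. Hoxa3, an anterior gene of pharyngeal and thymus development, was at −0.02 (SE 0.89) and Hoxd13 at −0.32 (SE 0.58). Hoxd3 (−1.11, adjusted p = 0.181) and Hoxa10 (−1.90, adjusted p = 0.0836) had a group without fragments and no standard error. Among members too low to test, Hoxa13 went from 24 fragments in 9 libraries to 5 in 8, and Hoxb13 from 10 to 2.

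**Figure D3:**
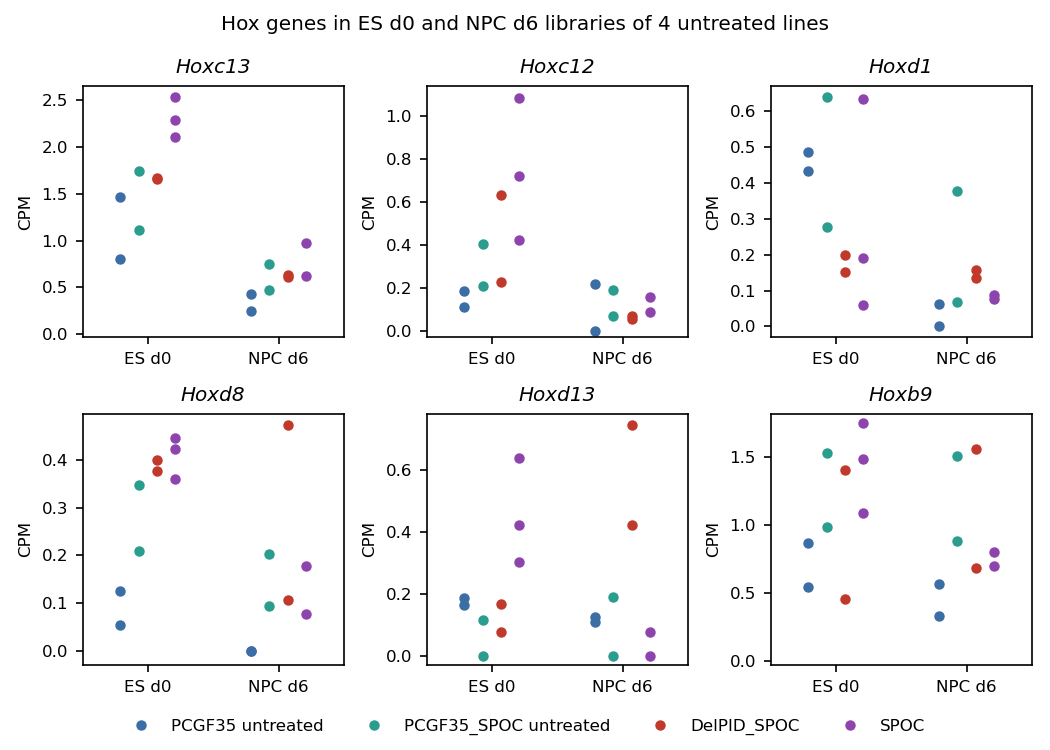
Level in CPM (y axis) of 6 Hox genes in each ES d0 and NPC d6 library (x axis) of the untreated PCGF35, PCGF35_SPOC, DelPID_SPOC and SPOC lines, 1 point per library and 1 colour per line. For Hoxc13 the 2 stages do not overlap within any line (0.806 to 2.54 CPM against 0.252 to 0.976 CPM), while for Hoxb9 and Hoxd13 they do.

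Where clones or numbered samples were used as a block, 2 Hox genes were called over the 4 lines (Hoxc13 −1.44, adjusted p = 0.000425, and Hoxc12 −1.77, adjusted p = 0.0148), since Hoxd1 and Hoxd8 were then filtered out. With the block but all 9 genes kept, 3 were called, Hoxd1 among them (−1.39, adjusted p = 0.0440), while Hoxd8 was not (−1.03, adjusted p = 0.0960). Within single lines, Hoxc13 (−1.75, adjusted p = 0.0331) and Hoxd1 (−3.30, adjusted p = 0.0299) passed in PCGF35 (29.5% of genes called, 15.9% lower), and Hoxc13 (−1.45, adjusted p = 0.0245) and Hoxd13 (−3.16, adjusted p = 0.0282) in SPOC (34% of genes called, 16.7% lower). With the block, Hoxc13 missed the threshold in PCGF35 (adjusted p = 0.0586, edgeR) and kept its call in SPOC (adjusted p = 0.0237). Hoxd1 in PCGF35 and Hoxd13 in SPOC were then filtered out and not tested. Leaving out any 1 of the 4 PCGF35 libraries left at most 1 call (adjusted p up to 0.291 for Hoxc13 and 0.137 for Hoxd1). In SPOC no call remained without either NPC d6 clone and 1 without C11 or H1 at ES d0 (adjusted p up to 0.223 for Hoxc13 and 0.184 for Hoxd13). No Hox gene passed in PCGF35_SPOC or DelPID_SPOC (7.35% and 19.2% of genes called, 4.46% and 9.42% lower), where 1 and 3 had an unadjusted p under 0.05 and DESeq2 called 0 in each. Hoxd13 went the other way in DelPID_SPOC than in SPOC. It was at 0.0755 and 0.167 CPM at ES d0 and at 0.422 and 0.743 CPM at NPC d6 in DelPID_SPOC, with no overlap and both clones higher (6 and 19 fragments, 2.01, SE 0.82, adjusted p = 0.0782), against 0.301 to 0.639 CPM and 0 to 0.0777 CPM in SPOC. Differences in the change between lines were not tested.

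Of the genes that work with Hox proteins, some rose. Hox proteins bind DNA together with TALE homeodomain proteins, among them those of the Meis and Pknox families, and Meis2 (1.66, SE 0.24) and Pknox1 (0.35, SE 0.09) rose from ES d0 to NPC d6, while Meis1 (0.42, SE 0.28), Meis3 (0.42, SE 0.43) and Pknox2 (0.52, SE 0.29) did not pass the test. Of 12 Cdx and retinoic acid genes, which act upstream of Hox genes in the embryo, 8 were tested, and the receptors Rarg (1.52) and Rara (0.44) and the transporter Stra6 (0.74) rose. The Cdx genes themselves stayed at the floor: Cdx1, Cdx2 and Cdx4 had medians of 0.142, 0 and 0.311 CPM in ES and 0, 0 and 0.130 CPM in NPC libraries. Of 20 other lineage factors known as bivalent Polycomb targets in ES cells, 10 were tested, of which 4 fell (Tbx5 −2.29, Pax2 −1.71, Pax7 −1.52 and Tbx20 −0.79) and Gata4 rose. Of 5 forebrain and midbrain genes tested Rax fell (−1.07), of 3 trunk and neuromesodermal genes none passed, and of 6 endoderm genes Gata4, which is in both lists, rose (1.34).

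Among genes beside the clusters, 19 of 27 outside and 4 of 9 within were tested. Outside, 3 rose and 7 fell, Skap2 (−0.65, SE 0.12) and Lnp (−0.62, SE 0.11) among the latter and Igf2bp1 (0.73, SE 0.14) among the former. Gm15055, a noncoding gene 3′ of Hoxa, went from 4.30 CPM in pooled ES to 0.653 CPM in pooled NPC libraries and fell by 3.33 (SE 0.31). Within the clusters Gm11538, between Hoxb13 and Hoxb9, fell by 1.97 (SE 0.51), and Gm53 did not pass (0.12, SE 0.25).

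Genes listed as markers of feeder fibroblasts moved with stage too. Their summed level over 12 genes was between 26.5 and 439 CPM per library, Col1a2, Col5a2 and Dcn rose and Pdgfrb and Thy1 fell among 11 tested, and the highest libraries were clone F10 of PCGF35_SPOC at NPC d6 (350 untreated, 439 with dTAG-13) and PCGF35 NPC d6 replicate 1 (258). Summed Hox levels in these 3 libraries were 2.23, 1.52 and 1.70 CPM, at the low end of the NPC range. In the last of them T, a mesoderm gene, was also at 41.0 CPM. Without the PCGF35_SPOC libraries of clone F10, an alternative chosen after seeing the data, 4 Hox genes were called from ES d0 to NPC d6 and 0 after dTAG-13 in NPC cells, as with them.

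Treatment with dTAG-13 gave no detectable change of Hox RNA. Loss of the tagged proteins was not measured in the files used here. In ES cells the summed level was 4.51 CPM (4.17 to 4.87) in 8 pooled untreated and 4.08 CPM (3.75 to 4.43) in 8 pooled dTAG-13 libraries. In NPC libraries it was 2.71 CPM (2.41 to 3.04) and 2.47 CPM (2.19 to 2.78). Paired by line, day and replicate, the summed level was higher with dTAG-13 in 3 of 8 ES pairs (differences of −1.58 to 0.405 CPM, median −0.432) and in 3 of 8 NPC pairs (−1.46 to 0.603 CPM, median −0.305). In PCGF35_SPOC the clones differed by more than this: at NPC d3 and d6 clone F6 was at 4.21 and 4.52 CPM untreated and 4.53 and 4.14 CPM with dTAG-13, and clone F10 at 2.29 and 2.23 CPM untreated and 2.06 and 1.52 CPM with dTAG-13.

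Gene by gene, 0 of 9 tested members were called after dTAG-13 in ES cells, as were 0% of all 16227 genes (234 at an unadjusted p under 0.05, none of them Hox). In NPC libraries 0 of 9 were called, again with 0% of all genes (1133 at an unadjusted p under 0.05, of which 1 was a Hox gene). DESeq2 called 0 and 12 genes in the 2 stages, none of them Hox. With the block of replicates 98 and 978 genes were called, and no Hox gene. Its own filter left only Hoxb9 and Hoxc13 of the members to test in ES cells, and Hoxa3 and Hoxb9 in NPC cells. With the block and all 9 kept, none was called (edgeR, lowest adjusted p 0.490 for Hoxc12 in ES and 0.106 for Hoxd1 in NPC cells). The median Hox log2 fold change was −0.20 in ES and 0.04 in NPC cells, against 0.00168 and 0.00303 over all genes. The pooled level was higher with dTAG-13 for 16 members and lower for 17 in ES cells, and higher for 11 and lower for 21 in NPC cells. Of members without a fragment in the 8 untreated libraries, 1 in ES (Hoxb1) and 3 in NPC cells (Hoxb13, Hoxd9 and Hoxd12) had any in the 8 treated ones, with at most 3 fragments. Hoxa4, Hoxa5, Hoxa6 and Hoxd4 could not show a switch from none, since their count of 0 does not measure their RNA.

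The intervals, worked back from the test statistic and so approximate, state how large a change could have been missed. For Hoxc13 in ES cells, the 4 untreated PCGF35 libraries were at 0.806, 1.46, 0.810 and 1.21 CPM and the treated ones at 0.787, 0.991, 0.850 and 0.935 CPM. In PCGF35_SPOC, the untreated were at 1.11, 0.951, 1.74 and 2.14 CPM and the treated at 0.673, 0.993, 1.72 and 2.82 CPM (clone F10 first). Treated and untreated libraries overlapped in both lines. The log2 fold change was −0.10, with a 95% interval of −0.62 to 0.41, and in NPC cells 0.11 (−0.58 to 0.81). For Hoxb9 the changes were −0.20 (−0.96 to 0.57) in ES and 0.04 (−0.78 to 0.86) in NPC cells, and for Hoxa3 0.19 (−0.84 to 1.22) and 0.26 (−0.61 to 1.13). Hoxc12 (−2.17 to 0.37) and Hoxd3 (−1.25 to 1.30) had wider intervals in ES cells than these 3. A rise of Hoxc13 by more than 0.41 in ES cells is outside its interval.

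**Figure D4:**
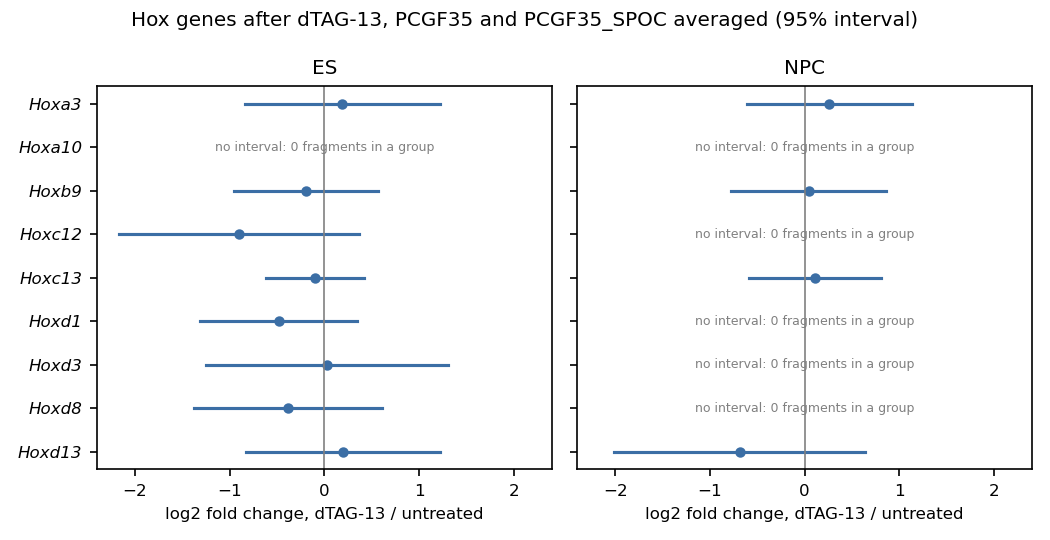
Log2 fold change (dTAG-13 minus untreated, x axis) of the 9 tested Hox genes (y axis) in ES (left) and NPC cells (right). Values are averaged over PCGF35 and PCGF35_SPOC and both days, with 95% intervals worked back from the F statistic of the edgeR test. Every interval drawn includes 0, and members with a group of 0 fragments have no interval.

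Hoxd1 was the member with an unadjusted p under 0.05 in NPC cells. The 8 untreated NPC libraries held 16 of its fragments, at 0.304, 0.0626, 0.0630 and 0 CPM in PCGF35 and 0.127, 0.0677, 0.172 and 0.377 CPM in PCGF35_SPOC. The 8 treated libraries held 3 fragments, with 0.0804, 0.0608 and 0.0752 CPM in 3 libraries and 0 in the other 5. The fitted change of −2.61 (adjusted p = 0.555, edgeR) has groups at 0 and no standard error. With the block and the genes tested over all libraries, its adjusted p was 0.106 (edgeR). The direction is a decrease. In ES cells Hoxd1 was at 0.356 CPM untreated and 0.269 CPM treated, with a change of −0.48 (−1.31 to 0.35).

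The response to dTAG-13 was also compared between lines and stages by interaction terms. None of the 9 members was called for PCGF35_SPOC against PCGF35 in ES or NPC cells, or for NPC against ES cells, and 0% of all genes were (63, 408 and 382 genes at an unadjusted p under 0.05, DESeq2 0 in each). The Hox gene with the lowest interaction p between lines was Hoxd13 in ES cells (1.93, 95% interval −0.08 to 3.93, unadjusted p = 0.0594). For NPC against ES cells 1 Hox gene, Hoxd1, had an unadjusted p under 0.05. In the 8 single line-and-day comparisons no gene was called by edgeR (29 to 749 at an unadjusted p under 0.05, Hoxd1 at NPC d3 in both lines among them). DESeq2 called 1 gene in 1 of the 8 and the block 0 to 1576 genes, none of them Hox. In PCGF35 NPC d6 the block left no Hox gene to test. After dTAG-13 the TALE, Cdx and retinoic acid, bivalent factor, ES cell, neural, forebrain and midbrain, trunk, endoderm and fibroblast genes and the genes flanking the clusters had no call in ES or NPC cells. In the treated lines no Hox gene passed from ES d0 to NPC d6 (11.4% and 5.33% of genes called in PCGF35 and PCGF35_SPOC, 6.93% and 3.01% lower).

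The summed Hox level also differed between lines. Summed over the 38 genes, ES libraries of SPOC were at 7.10 to 11.4 CPM, of DelPID_SPOC at 5.08 to 8.41, of untreated PCGF35_SPOC at 4.80 to 6.15 and of untreated PCGF35 at 3.16 to 3.82 CPM. The SPOC libraries lay above all those of both degron lines. Hoxa10 was part of this: it was at 1.02, 0.421 and 0.493 CPM (C11, D9, H1) at d0 and 1.98, 0.172 and 0.586 CPM at d1 in SPOC, and at 0 to 0.190 CPM in the 8 untreated libraries of the degron lines. In DelPID_SPOC it was at 0.453 and 0.133 CPM (A8, G3) at d0 and 0.169 and 0.0910 CPM at d1. Clone D9 of SPOC thus overlapped DelPID_SPOC, and at d1 also the degron lines. In NPC libraries the SPOC line was at 2.26 to 3.37 CPM, WT at 2.46 to 3.82, DelPID at 4.36 to 6.76 and DelPID_SPOC at 3.11 to 6.96 CPM.

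The SPOC mutation was tested against its parental line in NPC cells in 3 pairs of lines. Per the study, WT and DelPID were differentiated alongside the clones derived from them, but the labels do not say which numbered sample went with which clone, so no paired fit was made. Averaged over these, 7.8% of all genes (2.87% lower) and 0 of 9 Hox genes were called (median Hox log2 fold change 0.08), and 0 Hox genes had an unadjusted p under 0.05 and 0 were called by DESeq2. For SPOC against WT, PCGF35_SPOC against PCGF35 and DelPID_SPOC against DelPID, 1.77%, 0.173% and 2.63% of genes (0.641%, 0% and 1.12% lower) and 0 Hox genes were called, with 0, 1 and 2 Hox genes at an unadjusted p under 0.05. The lowest p was that of Hoxa3 in the DelPID pair. It was at 1.10, 1.47, 0.873 and 1.52 CPM in DelPID (d3 and d6) and at 0.242, 0.647, 0.211 and 1.01 CPM in DelPID_SPOC, with no overlap at d3 (the first pair of values in each line) and with the highest DelPID_SPOC library above the lower DelPID one at d6. The log2 fold change was −1.39 (SE 0.48, adjusted p = 0.101, edgeR), and without clone G3 at NPC d6 the gene was called. In the DelPID d3 and d6 libraries of replicate 2, 88.7% and 86.8% of allele-assigned fibroblast-gene fragments were Dom, against 52.9% to 75.9% in all other libraries, and those libraries had the 2 highest Hoxa3 values. Without the 2 DelPID libraries of replicate 2, an alternative chosen after seeing the data, 0 Hox genes were called.

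In ES cells the 1 line pair with this contrast is PCGF35_SPOC against PCGF35, both untreated, a comparison added after the data were seen. No Hox gene was called, with 0.0801% of all genes (0.0616% lower), although 8 of 9 were higher in PCGF35_SPOC (median 1.00). Hoxa3 was at 0.0483 to 0.116 CPM in PCGF35 and 0.116 to 0.523 CPM in PCGF35_SPOC (log2 fold change 1.63, SE 0.69), and Hoxd3 differed by 1.69 on the same scale (SE 0.73, adjusted p of 0.284 from edgeR). DESeq2 called no Hox gene either. Induction of Xist for 1 day in untreated ES cells changed 0.0493% of genes (0.0185% lower) and no Hox gene (0 at an unadjusted p under 0.05, DESeq2 0).

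Fragments that overlap a base at which the parental genomes differ were assigned to an allele by the authors. Of the 4037 Hox fragments 1229 (30.4%) from 31 members were assigned. Over all libraries the Dom share was 59.7% (95% Wilson interval 53.4 to 65.8) for Hoxa, 69.3% (63.8 to 74.3) for Hoxb, 47.4% (42.1 to 52.7) for Hoxc and 52.3% (47.2 to 57.4) for Hoxd. The other genes of the same chromosomes had Dom shares of 51.5% (chromosome 6), 51.8% (chromosome 15) and 53.0% (chromosome 2), and those of chromosome 11 were between 35.0% and 69.2% Dom in single libraries. The intervals of Hoxc and Hoxd include the value of their chromosome, and that of Hoxa lies above it, also without the DelPID libraries of replicate 2 (58.8%, 52.0 to 65.2, chosen after seeing the data). Single members of Hoxc and Hoxd differed. Hoxd1 (31.3%, 22.4 to 41.9) and Hoxc12 (37.6%, 28.1 to 48.3) lay below their chromosome and Hoxd13 (67.8%, 55.1 to 78.3) above it. The intervals of Hoxc13, Hoxd3 and Hoxd8 include theirs. In SPOC the Hoxd interval (41.6%, 31.9 to 52.0) left out the 52.9% of chromosome 2, and the other lines' Hoxd intervals include their own value. The Hoxa share was not raised in every line. It was 51.4% in SPOC and 51.9% in PCGF35_SPOC, where chromosome 6 was at 50.2% and 52.7%, and between 67.3% and 75.0% in the other 4 lines. Of these, DelPID_SPOC (67.3%, 53.4 to 78.8) had an interval that leaves out its chromosome's 48.7%, and those of WT, PCGF35 and DelPID include theirs.

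The Hoxb share differed between lines, and so did that of chromosome 11 as a whole. In PCGF35 it was 82.1% (71.3 to 89.4), in PCGF35_SPOC 85.1% (76.5 to 90.9), in SPOC 66.1% (53.7 to 76.7), in DelPID_SPOC 36.7% (24.7 to 50.7) and in DelPID 35.7% (16.3 to 61.2). The rest of chromosome 11 was at 68.9%, 68.7%, 49.5%, 35.3% and 36.3% Dom in these lines. On the other chromosomes with a Hox cluster, the shares stayed between 46.0% and 54.1% in every library. A difference in copy number of chromosome 11 between lines was not tested. Hoxb9 alone had 37 Dom and 8 Cast fragments in PCGF35, 65 and 9 in PCGF35_SPOC, 35 and 18 in SPOC, and 11 and 16 in DelPID_SPOC. The neighbouring Gm53 had Dom shares of 77.2%, 77.8%, 63.7% and 43.6% in the same 4 lines. Hoxc13 was at 122 Dom and 119 Cast fragments over all libraries, or 50.6% Dom (44.4 to 56.9).

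**Figure D5:**
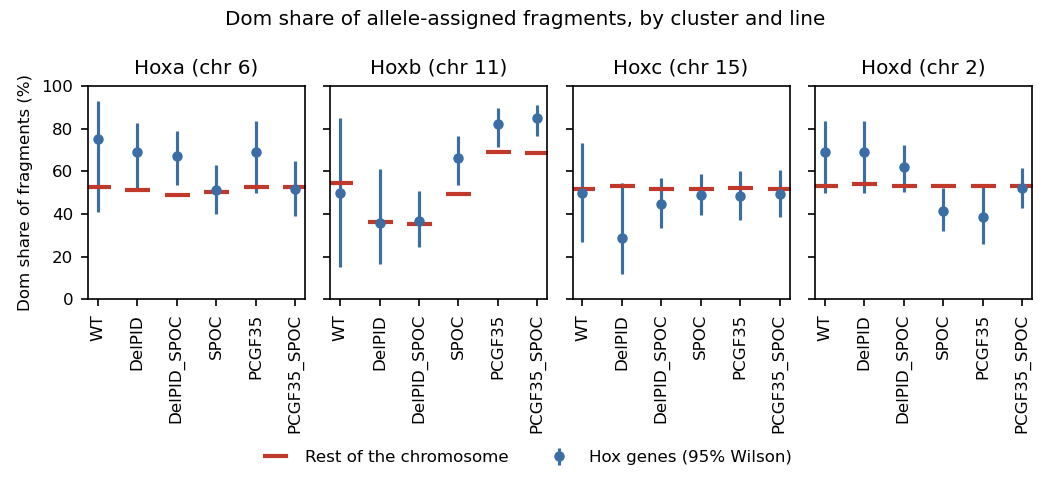
Dom share of allele-assigned fragments in percent (y axis) for each Hox cluster (panels) in the 6 lines (x axis), with 95% Wilson intervals, beside the share over the other genes of the same chromosome. Hoxb runs from 35.7% in DelPID to 85.1% in PCGF35_SPOC and chromosome 11 from 35.3% to 68.9%, while chromosomes 6, 15 and 2 stay near an equal share.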

How the data were processed

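Chromatin RNA-seq libraries of 58 samples in 28 groups were used. The authors removed ribosomal reads with Bowtie2 2.3.2, aligned the rest with STAR 2.4.2a to an N-masked mm10 genome, split alleles with SNPsplit and counted with featureCounts (strand-specific, whole transcript span). The deposited values used here are raw fragment counts per gene, in total and per allele, with replicates not pooled. The deposited allelic ratio table of X-linked genes was not used.

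Levels are CPM on the library's total gene count. Comparisons used the quasi-likelihood test of edgeR 4.0.16 (R 4.3.3) on all 58 libraries with 1 mean per group, filterByExpr and TMM. This tested 16227 of 22556 genes, 9 of them Hox, with Benjamini-Hochberg adjustment over all tested genes and a threshold of 0.05. Standard errors were worked back from each test, as the absolute log2 fold change over the square root of the F statistic. The intervals of fold changes are built on them, and both are approximate, above all where the change is near 0. limma 3.58.1 was loaded with edgeR, and DESeq2 1.42.0 was an alternative. Fits without 1 library reused the trended dispersion of all libraries. The script was tested on simulated counts.

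Replicate numbers were checked for pairing: deviations from group means correlated at 0.161 to 0.816 in 8 of 8 pairs of untreated and dTAG-13 groups, and clones pair by identity. For ES d0 and NPC d6 the correlations were −0.0185 to 0.282 over 5 pairs of groups, with 3 of them over 0.1. In untreated PCGF35 the correlation was 0.00746, so that pairing by replicate number was not seen between its stages. Counts of the 32 replicate pairs differed beyond sampling noise (chi-square per degree of freedom 11.5 to 138). A count of 0 allows up to 3 fragments, which are 0.100 CPM in the deepest and 1.31 CPM in the shallowest library. Promoter windows are from RefSeq (GRCm38.p6), whose plus-strand starts lie 1 base after those in the files, apart from Hoxd13 (−84 bases) and a second Hoxd11 window (2766 bases).

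The members, the gene lists and the tests were chosen with earlier results of these data known. Members named are those tested, the highest per cluster and the lowest. Of the 39 genes of the rule and of the genes that work with Hox proteins, 1 each is not reported here.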

Additional observations from a re-analysis of the deposited data

Results flagged for a closer look

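Of 24 differences examined between the degron lines, 1 was marked because all pairs of PCGF35 moved one way and all of PCGF35_SPOC the opposite way. At ES d1 the summed level of the 38 Hox genes was lower with dTAG-13 in both PCGF35 pairs (differences of −1.03 and −0.702 CPM) and higher in both PCGF35_SPOC pairs (0.352 and 0.405 CPM). The difference was not tested for the sum, each side is 2 pairs, and in the gene-level test of the same difference over both ES days 0 of 9 Hox genes were called. At ES d0 the pairs differed by 0.208 and −0.925 CPM in PCGF35 and by −1.58 and −0.162 CPM in PCGF35_SPOC.

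Of 60 comparisons of the change from ES d0 to NPC d6 between 2 untreated lines (the summed level and the 9 tested genes), 3 were marked because the stages did not overlap in either line and moved opposite ways. Hoxd13 was higher at NPC d6 in DelPID_SPOC (difference of means 0.462 CPM) and lower in SPOC (−0.415 CPM) and PCGF35 (−0.0568 CPM). Hoxa3 was higher in PCGF35 (0.118 CPM) and lower in SPOC (−0.364 CPM). In PCGF35 these values rest on few fragments: 3 at ES d0 and 5 at NPC d6 for Hoxa3, and 6 and 3 for Hoxd13. These differences between lines were not tested, and each group holds 2 or 3 libraries. How many of all genes either of the 2 marking rules would mark was not determined.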

How the results depend on the processing

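For the 4-line comparison of NPC d6 with ES d0, 4 Hox genes were called. The count was 2 with only the libraries of the groups compared, 2 with the replicate block, 2 with 1 common term for stage, and between 3 and 4 in 17 fits that left out 1 library. With the block and the genes tested over all libraries it was 3, and with no filter on low counts 5, with Hoxa13 added. Hoxc13 kept its call in all 25 alternatives (log2 fold change −1.55 to −1.32, adjusted p at most 0.000657, edgeR or DESeq2), Hoxd1 in all 22 that tested it, Hoxc12 in 24 of 25, and Hoxd8 in 13 of 22. In PCGF35 the count of 2 became 1 with DESeq2, 0 with only the groups' libraries, and 0 to 1 without 1 library. With the block it became 0, with Hoxd1 filtered out. In SPOC the count became 1 with DESeq2, 1 with the block (Hoxd13 filtered out) and 0 to 2 without 1 library. In DelPID_SPOC against DelPID the count of 0 was 0 to 1 without 1 library (Hoxa3 without DelPID_SPOC NPC d6 replicate 2). No fold change reversed, and the other alternatives left each Hox count of 0 at 0.

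Counts over all genes moved further. With the replicate block dTAG-13 called 98 genes in ES and 978 in NPC cells in place of 0. The block called 256 for NPC against ES, 1 and 312 for the difference between lines in ES and NPC cells, and 0 to 1576 in single groups. None of these was Hox, but in the fits over several groups only Hoxa3, Hoxb9 or Hoxc13 passed the block's own filter. With the groups' libraries alone 18 genes were called in PCGF35 NPC d3. NPC d6 against ES d0 gave 1 gene in place of 3121 in DelPID_SPOC, 0 (block 176) in place of 1192 in PCGF35_SPOC and 0 (block 7) in place of 865 in its dTAG-13 arm. DelPID_SPOC against DelPID gave 14 in place of 427 (DESeq2 665), SPOC against WT 1163 in place of 287 (DESeq2 559), and PCGF35_SPOC against PCGF35 0 in place of 28 (DESeq2 116) in NPC and 0 in place of 13 (DESeq2 148, no filter 7) in ES cells. Xist induction gave 12 with DESeq2 in place of 8, and dTAG-13 in NPC cells 12 in place of 0. The causes were not tested. In PCGF35 NPC d6 no Hox gene passed the filter with the groups' libraries alone or with the block, so those 2 alternatives have no value. Depth limits all of this: 29 members were too low to test.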
